A study of Homo sapiens with 5 samples.

Results

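The 2 libraries of unedited SVG-10B1 cells, labelled wild type replicates 1 and 2, were compared with each other. SVG-10B1 is an established human astroglial cell line, grown in Dulbecco's medium with fetal calf serum, and both libraries carry the same clone number (1) and the same genotype label (wild-type). The genes compared were chosen by their measured level: a gene entered when it reached at least 1 CPM (reads of the gene scaled to the depth of its library) in either library, which 13994 of the 57905 genes with counts did. At that threshold, RNU1-2, RAET1G and TAS2R20 were just inside, each with a higher level of 1.03 CPM, and UBE2FP1, HRCT1 and C16orf3 were just outside, each at 0.991 CPM. The series also holds 3 libraries of derivatives of the line that carry IDH1 R132H/WT, 1 of clone 2 and 2 of clone 6. These 3 enter the scaling of the libraries and otherwise serve here to place the wild-type values.

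With 1 library against 1 there is no test, and no p-value is given. Each ratio of the libraries has an exact 95% interval that covers counting error only, and the labels do not say whether the replicates are separate cultures. A gene is said here to pass the call when it was at least 2-fold higher in 1 library and its interval lay wholly beyond no change. The genes and the lists were selected on these same libraries, so the ratios below describe them and support nothing further.

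Assigned reads came to 21881726 in wild-type replicate 1 and 17603317 in replicate 2, and to between 13572114 and 16559077 in the edited libraries, so that 1 read is worth 0.0469 CPM and 0.0550 CPM in the wild-type pair. Genes of ribosomal RNA took 7.23% of the reads of replicate 1 and 2.24% of those of replicate 2. Among the edited libraries, clone 2 and clone 6 replicate 1 stood unusually close: of the 9444 genes at a mean of 10 CPM or more in them, 7 passed the call in either direction. The same count was 39 of 9550 in the wild-type pair and 288 of 9477 between the 2 clone 6 libraries. Counts of list members that were highest in a wild-type library are therefore also given without clone 2. Of the 12 astrocyte markers, which summed to 302 and 286 CPM in wild-type replicates 1 and 2, 6 were members: the gap junction gene GJA1 (170 and 156 CPM), GLUL (74.3 and 70.7 CPM), CLU, SOX9, SLC1A3 and NFIA. The other 6 stayed under 1 CPM, among them GFAP at 0.422 and 0.385 CPM and AQP4 and S100B with 0 reads in both.

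Cells sense oxygen through prolyl hydroxylases that mark the alpha subunits of the hypoxia-inducible factors HIF1A and EPAS1 for degradation; when oxygen is short, the subunits last, pair with ARNT and activate genes for glucose uptake, glycolysis, acid export and vessel growth. Their binding sites share a short core of letters called the hypoxia response element. Immediate early genes, such as FOS and EGR1, encode transcription factors and feedback proteins that serum, growth factors or stress induce within a short time and without new protein synthesis.

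Most genes lay close together in the 2 libraries. Of the 13994 genes, 92.8% were within 1.5-fold of each other, and the median log2 ratio of replicate 1 over replicate 2 was 0.02. At a mean of 10 CPM or more, the log2 ratios had a standard deviation across genes of 0.214, against a median counting error of 0.0687. Ratios between the libraries were thus wider than counting alone gives. In replicate 1, 174 genes passed the call (1.24%) and in replicate 2, 117 genes (0.836%). On totals with no scaling factor these counts were 127 and 150, so that the share of called genes that were higher in replicate 1 went from 59.8% to 45.9%. At any size of difference, the interval lay wholly above no change for 2555 genes (18.3%), which were higher in replicate 1. It lay wholly below no change for 1924 genes (13.7%), which were higher in replicate 2. With no scaling factor these counts were 1405 and 3750 of 14074 genes.

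Low genes supplied most of the calls. Of the 3042 genes whose higher level was from 1 CPM up to 5 CPM, 227 passed (7.46%), and a gene that entered through only 1 of the libraries had to differ. From 5 up to 20 CPM 31 of 3098 passed (1.00%), from 20 up to 100 CPM 21 of 5592 (0.376%), and from 100 CPM 12 of 2262 (0.531%). Among protein-coding genes 104 of 11984 passed in replicate 1 and 45 in replicate 2. Long noncoding RNAs gave 40 and 44 of 1059. Calls were thus rarer from 5 CPM up, and the differences were smaller. The median absolute log2 ratio was 0.324 from 1 up to 5 CPM and 0.0837 from 100 CPM. At a mean of 10 CPM or more the interval lay beyond no change for 38.7% of 9550 genes, against 32.0% of all 13994. More reads narrow the interval, so this share can rise with level while the differences shrink.

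At a mean of 5 CPM or more, and leaving out genes named only by a clone, 25 genes passed in replicate 1 and 26 in replicate 2. In replicate 1, 9 of the 25 were in the list of hypoxia response genes, 4 were ribosomal RNA genes and 1 was the glycolysis gene PDK1. In replicate 2, 8 of the 26 were in the list of immediate early genes and genes of feedback on the kinase ERK, and 3 were targets of the coactivator YAP and its partner TEAD.

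**Figure D1:**
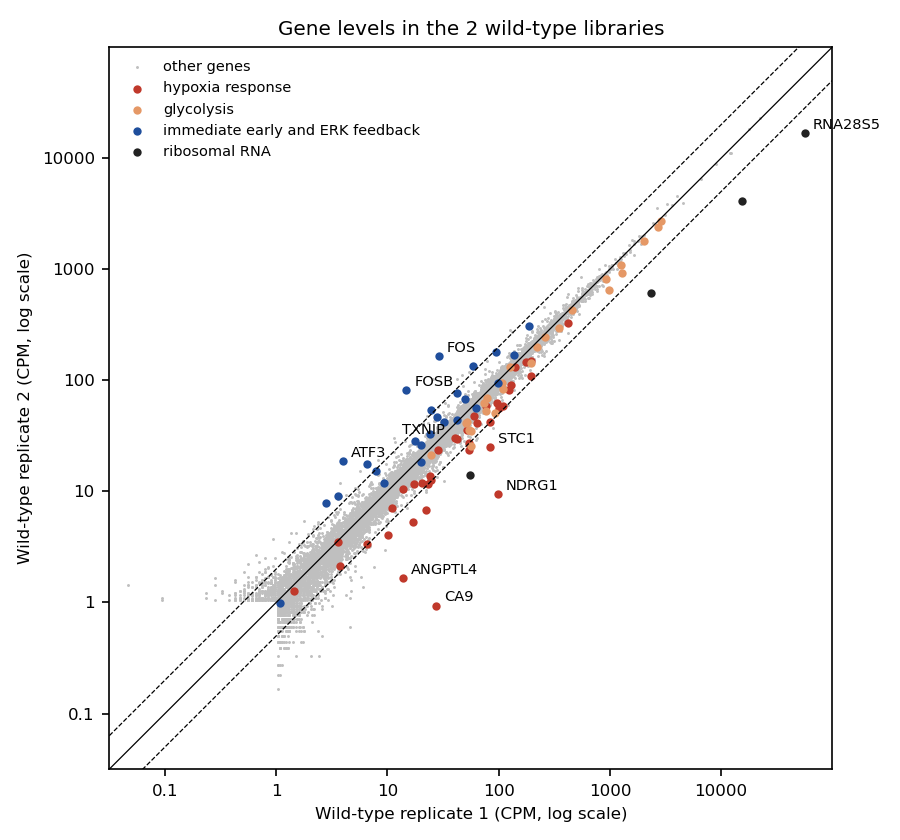
Level of each of the 13994 genes in wild-type replicate 1 (x axis) and replicate 2 (y axis), in CPM on log scales, with 4 gene lists coloured, no change as a solid line and 2-fold as dashed lines. Most genes follow the solid line, CA9 at 27.2 and 0.936 CPM lies farthest below it among the coloured genes, and FOS at 28.9 and 164 CPM lies above the upper dashed line.

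The hypoxia response genes were higher in wild-type replicate 1 as a group. All 38 listed genes were members, all 38 had a ratio above no change, and the interval lay beyond it for 36 of them, with 0 below (18.3% and 13.7% of all genes). Of the 38, 9 passed the call in replicate 1 and 0 in replicate 2, against 1.24% and 0.836% of all genes. Their median log2 ratio was 0.69, a ratio of 1.62-fold, against 0.02 over all genes, and it lay between 0.61 and 0.76 under every scaling tried and among the genes at 5 CPM or more. The list was put together with earlier results of these libraries known. CA9 and NDRG1, which are among the 9, were given as markers of this comparison from the start.

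CA9 and CA12 encode carbonic anhydrases at the cell surface that turn carbon dioxide and water into bicarbonate and acid. CA9 was at 27.2 CPM in wild-type replicate 1 and at 0.936 CPM in replicate 2, which rest on 581 and 17 reads. In the edited libraries CA9 was at 4.26 CPM in clone 2 and at 2.26 and 1.51 CPM in clone 6 replicates 1 and 2. Replicate 1 was thus the highest of the 5 libraries and replicate 2 the lowest. The ratio of 29.1-fold (95% counting interval 18 to 50.3) was the largest of all 38. CA12 was at 101 and 56.4 CPM, a 1.80-fold ratio.

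NDRG1, a cytoplasmic protein known as a stress and hypoxia marker, was at 97.7 CPM in wild-type replicate 1 and 9.52 CPM in replicate 2. In the edited libraries NDRG1 was at 19.2 CPM in clone 2 and at 18.9 and 17.4 CPM in clone 6. The 3 edited libraries lay near each other and between the wild-type pair. The ratio of NDRG1 within the pair was 10.3-fold (8.79 to 12.1), and its log2 value of 3.36 compares with 0.13 between the clone 6 libraries.

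Secreted factors and enzymes followed. ANGPTL4, a secreted inhibitor of lipoprotein lipase, was at 13.7 and 1.65 CPM in wild-type replicates 1 and 2 (8.32-fold, 5.70 to 12.6) and at 1.06 to 1.20 CPM in the edited libraries. STC1, the secreted glycoprotein stanniocalcin 1, was at 83.4 and 25 CPM (3.33-fold), and the edited libraries lay lower, from 11 to 15.2 CPM. For these 2 genes both wild-type libraries were above all 3 edited ones. ADM, which encodes the vasodilator peptide adrenomedullin, was at 141 and 131 CPM, a ratio of 1.07-fold. VEGFA, the vascular growth factor, was at 28.7 and 23.7 CPM (1.21-fold), so these widely used hypoxia genes were among the members nearest to no change. LOX, which crosslinks collagen, was at 82.8 and 42.5 CPM (1.95-fold).

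Other members act inside the cell. HILPDA, a lipid droplet protein that inhibits triglyceride breakdown, was at 22.2 and 6.82 CPM (3.26-fold, 2.67 to 4.00), with the edited libraries from 7.32 to 8.31 CPM. PPFIA4, a liprin scaffold protein, was at 17.1 and 5.34 CPM (3.21-fold, 2.56 to 4.05). MIR210HG, the host transcript of the microRNA miR-210, was at 10.2 and 4.07 CPM (2.51-fold, 1.92 to 3.31). All 3 were highest of the 5 libraries in replicate 1. DDIT4, an inhibitor of the growth kinase mTORC1, was at 53.8 and 23.3 CPM (2.30-fold, 2.06 to 2.58), and clone 6 replicate 2 stood beside replicate 1 at 52.6 CPM. AK4, a mitochondrial adenylate kinase, was at 54.6 and 27.0 CPM (2.02-fold, 1.82 to 2.25), with clone 2 and clone 6 replicate 1 above both at 69.3 and 63.6 CPM. AK4 passed the call narrowly: on totals with no scaling factor, size factors by relative log expression (RLE) or upper-quartile scaling, 8 hypoxia genes passed and not 9.

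The mitophagy receptors BNIP3 and BNIP3L were at 110 and 58.4 CPM (1.88-fold) and at 194 and 109 CPM (1.78-fold). The oxygen sensor EGLN1 was at 129 and 90.6 CPM (1.42-fold), and its relative EGLN3 was at 1.45 and 1.27 CPM with an interval that included no change. The collagen prolyl hydroxylases P4HA1 and P4HA2 had the same ratio of 1.53-fold, and the lysyl hydroxylases PLOD1 and PLOD2 had 1.20-fold and 1.29-fold. BHLHE40 and BHLHE41, which encode transcriptional repressors, had 1.41-fold and 1.97-fold. Sensors, enzymes, repressors and secreted factors alike had ratios above no change. ANKRD37, at 3.56 and 3.47 CPM, was the other gene whose interval included no change.

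**Figure D2:**
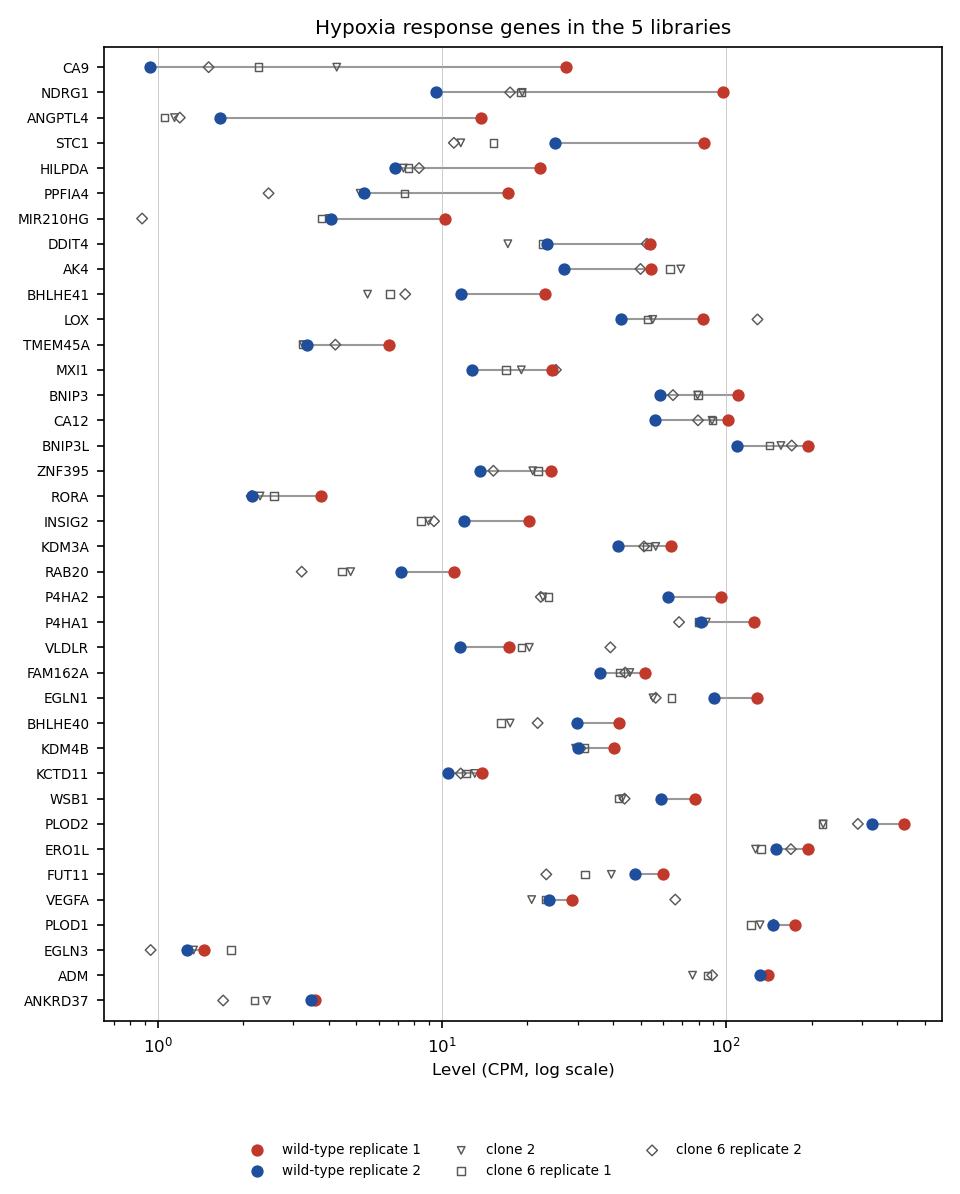
Level in CPM (log scale) of the 38 hypoxia response genes, sorted by the ratio within the wild-type pair, with filled points for the wild-type replicates joined by a line and open symbols for clone 2 and clone 6. The point of replicate 1 is to the right of that of replicate 2 in all 38 rows, with the widest line for CA9 and almost none for ANKRD37.

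The edited libraries place the pair. Replicate 1 was the highest of all 5 libraries for 32 of the 38 hypoxia genes, against 26.0% of all genes. Without clone 2 the count for replicate 1 was again 32 (27.5% of all genes highest among 4 libraries). Between the 2 clone 6 libraries the same 38 genes had a median log2 ratio of 0.04, with 10 intervals above and 10 below no change, against 20.9% and 31.3% of all genes. With clone 2 in place of clone 6 replicate 1 the median was -0.00. The wild-type pair thus held a difference in these genes that the labelled clone 6 pair did not show in 1 direction; the difference between the pairs was not tested.

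Promoter letters are shown for 4 of the hypoxia genes that passed the call, because the core of the hypoxia response element lay in each. Of the 38 members, 29 matched a promoter of RefSeq (build GRCh38.p14), and the 250 bases before the annotated start were searched for ACGTG on both strands, so that a match on the opposite strand reads CACGT and overlapping matches are merged. The capitals mark the matches:

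CA9 (chr9:35673678-35673927, plus strand): CA9

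ANGPTL4 (chr19:8363905-8364154, plus strand): ANGPTL4

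PPFIA4 (chr1:203026241-203026490, plus strand): PPFIA4

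DDIT4 (chr10:72273674-72273923, plus strand): DDIT4

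The core was present in 19 of the 29 promoters (65.5%), against 23.8% of the 9496 promoters matched to all genes compared and 18.7% of the 27305 promoters in the table. In the glycolysis list it was present in 9 of 24 (37.5%). Lists that leaned to replicate 2 held it too, with 6 of 16 YAP and TEAD targets (37.5%) and 5 of 18 immediate early genes (27.8%). Genes entered the hypoxia list as known hypoxia response genes, so a share above that of all genes can come from how the list was made. AK4 and MIR210HG also passed the call and held the core but are not shown. A match is a description of the letters, and a promoter without one says only that they are not in this window.

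The glycolysis and glucose uptake genes were higher in replicate 1 by a smaller margin. Of 26 listed genes 25 were members. PDK1, the kinase that holds pyruvate out of mitochondrial oxidation, passed the call at 56.1 and 25.4 CPM (2.21-fold, 1.98 to 2.46), with the edited libraries from 23.7 to 30.0 CPM. It was the only 1 of the 25 to pass in replicate 1 and 0 passed in replicate 2. The interval lay above no change for 24 genes and below it for 0 (18.3% and 13.7% of all genes). The median log2 ratio was 0.22. On totals with no scaling factor the median was 0.14, with 17 intervals above and 1 below.

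Along the pathway, the glucose transporter SLC2A1 was at 195 and 142 CPM (1.38-fold). Hexokinase HK2 was at 77.4 and 52.5 CPM (1.48-fold), whereas HK1 was at 260 and 244 CPM (1.07-fold). PFKFB4, which sets the activator of phosphofructokinase, was at 56.7 and 34.6 CPM (1.64-fold). Isoforms of 1 enzyme thus had unlike ratios, and the phosphofructokinase subunit PFKM, at 128 and 131 CPM, was the gene whose interval included no change. The phosphoglycerate kinase PGK1 was at 987 and 653 CPM (1.51-fold), and the enolase ENO2 was at 93.2 and 50.7 CPM (1.84-fold) while ENO1 was at 2888 and 2712 CPM (1.06-fold). Lactate dehydrogenase LDHA was at 1273 and 915 CPM (1.39-fold). Replicate 1 was the highest of the 5 libraries for 14 of the 25, against 26.0% of all genes, and for 16 without clone 2, against 27.5%.

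The messages of the oxygen-sensing factors themselves were nearer. EPAS1, which encodes HIF-2 alpha, was at 173 and 111 CPM in wild-type replicates 1 and 2 (1.57-fold, 1.48 to 1.66). HIF1A was at 589 and 547 CPM (1.08-fold), and ARNT was at 49.2 and 39.3 CPM (1.25-fold). CITED2, a competitor of HIF for its coactivator, was lower in replicate 1, at 26.3 against 33.6 CPM. Of the 9 members of this list 0 passed the call. Intervals were above no change for 5 and below it for 1 (18.3% and 13.7% of all genes). On totals with no scaling factor 2 were above and 3 below, against 1405 and 3750 of 14074 genes. TXNIP, an arrestin that limits glucose uptake and whose transcription follows glucose, was on the other side at 11.5 and 30.2 CPM (2.63-fold higher in replicate 2, 2.25 to 3.07), and the 3 edited libraries were at 8.78 to 11 CPM. Its relative ARRDC4 was at 2.86 and 4.35 CPM, and ARRDC3 was higher in replicate 1 at 61.6 and 44.1 CPM.

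Nuclear genes of mitochondrial respiration had medians near 0, and their counts rest on the scaling. The 36 members of the list of nuclear genes of oxidative phosphorylation had a median log2 ratio of -0.03 with 4 intervals on each side, and the 18 tricarboxylic acid cycle genes had -0.00 with 4 above and 3 below (18.3% above and 13.7% below over all genes). On totals with no scaling factor the respiration list had 0 above and 19 below with a median of -0.12, and the cycle list had 1 above and 7 below. With upper-quartile scaling the respiration list had 1 above and 17 below, and with RLE 3 above and 10 below. Of the 13 genes of proteins encoded in the mitochondrial genome, 11 had a lower level in replicate 1, with 10 intervals below no change and 0 above (13.7% and 18.3% of all genes) and a median of -0.29. MT-CO1, a subunit of cytochrome oxidase, was at 807 and 1008 CPM. In the clone 6 pair the 13 genes were on the other side, with a median of 0.54.

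Immediate early genes set the libraries apart in the opposite direction. Of 27 listed genes 25 were members, DUSP2 being listed at 0 and EGR3 reaching 0.660 CPM. Of the 25, 8 passed the call in replicate 2 (0.836% of all genes) and 0 in replicate 1 (1.24%). The interval lay below no change for 20 and above it for 1, the ERK-responsive factor ETV5, against 13.7% and 18.3% of all genes. The median log2 ratio was -0.70 and lay between -0.78 and -0.70 under every scaling tried and among the genes at 5 CPM or more.

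FOS and FOSB encode subunits of the transcription factor AP-1. FOS was at 28.9 CPM in wild-type replicate 1 and at 164 CPM in replicate 2 (5.68-fold higher in replicate 2, 5.2 to 6.2), from 617 and 2983 reads. The edited libraries were at 23.1 CPM in clone 2 and at 23 and 51.5 CPM in clone 6 replicates 1 and 2. FOSB was at 14.8 and 81.1 CPM (5.48-fold, 4.85 to 6.20), and at 6.87, 5.13 and 19.2 CPM in clone 2 and clone 6 replicates 1 and 2. Wild-type replicate 2 was the highest library for both genes, and replicate 1 lay within the range of the edited libraries. Their partner JUN differed less, at 188 and 305 CPM (1.62-fold), and JUNB was at 24.4 and 33.0 CPM (1.35-fold).

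ATF3, a stress-induced repressor of the same protein family, was at 3.98 and 18.8 CPM (4.72-fold, 3.71 to 6.06), but clone 6 replicate 2 was higher still at 51.8 CPM. The Krüppel-like factors KLF2, KLF4 and KLF6 were at 6.61 and 17.6 CPM (2.66-fold), 2.81 and 7.87 CPM (2.80-fold), and 58.6 and 135 CPM (2.31-fold). EGR1, a zinc finger factor, was at 24.8 and 54.1 CPM (2.19-fold, 1.96 to 2.43), and ZFP36, which destabilizes messages with AU-rich elements, was at 3.61 and 9.14 CPM (2.53-fold). The growth-promoting transcription factor MYC was at 42.1 and 77.2 CPM (1.83-fold), and DUSP1, a phosphatase of MAP kinases, was at 95.6 and 180 CPM (1.88-fold). The ERK phosphatase DUSP6 was at 32.3 and 42.0 CPM (1.30-fold), and DUSP4, at 42.1 and 43.9 CPM, had an interval that included no change. FOS, FOSB, ATF3, EGR1 and the Krüppel-like factors thus stood farther apart than the ERK feedback genes DUSP6, DUSP4 and SPRY2 (1.29-fold). At low levels NR4A2 was at 0.0469 and 1.43 CPM, from 1 and 26 reads, and NR4A3 at 0.328 and 1.21 CPM; these nuclear receptors were not in the list and were chosen after their values were seen.

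**Figure D3:**
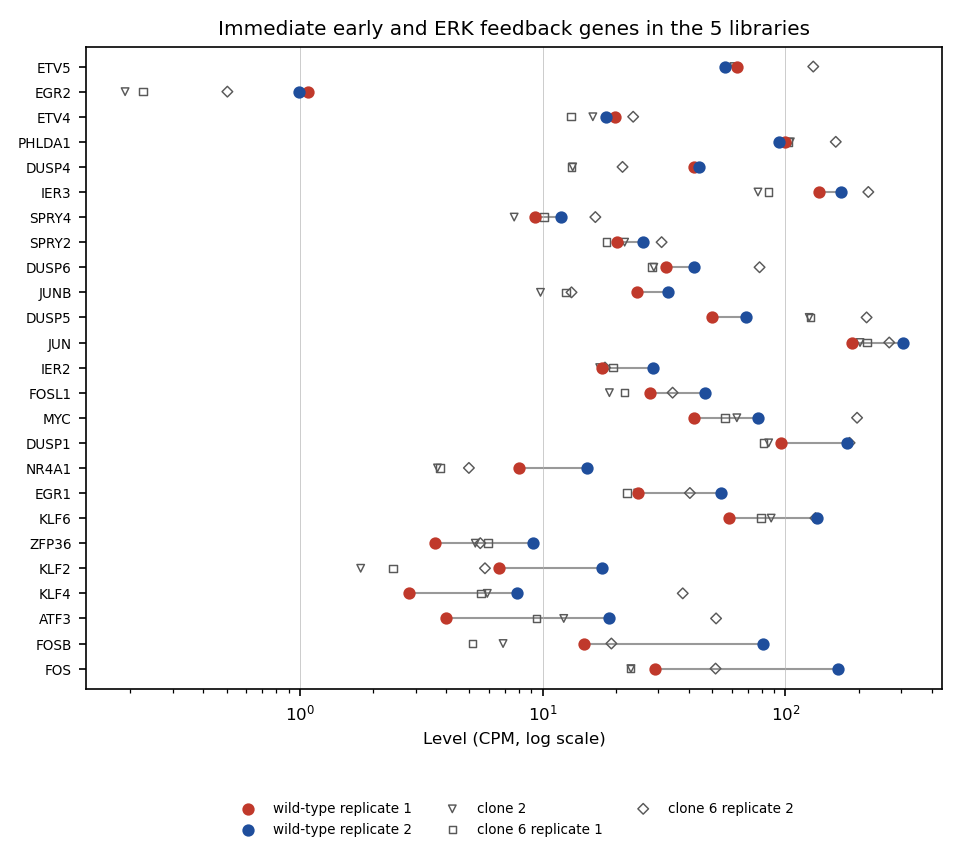
Level in CPM (log scale) of the 25 immediate early and ERK feedback genes, sorted by the ratio within the wild-type pair, with filled points for the wild-type replicates joined by a line and open symbols for clone 2 and clone 6. FOS and FOSB have the widest lines with replicate 2 at the right end, and clone 6 replicate 2 lies to the right of both wild-type points for ATF3 and KLF4.

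Replicate 2 was the highest of the 5 libraries for 12 of the 25, against 17.1% of all genes, and for 12 also without clone 2 (18.3% of all genes highest among 4 libraries). Between the clone 6 libraries these genes had a median log2 ratio of -0.85, with 20 intervals below no change and 0 above (31.3% and 20.9% of all genes), where the hypoxia genes had 10 on each side. With clone 2 in place of clone 6 replicate 1 the median was -0.86.

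The promoter of EGR1 is shown because it was the 1 of 18 matched promoters in this list with a CArG box, the element bound by the serum response factor, in the same 250-base window (1.14% of all promoters in the table, 0.948% of those of all genes compared). The capitals mark its 2 matches:

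EGR1 (chr5:138465229-138465478, plus strand): EGR1

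The YAP and TEAD targets split. Of 22 members, 3 passed in replicate 2 and 0 in replicate 1 (0.836% and 1.24% of all genes). Intervals were below no change for 12 and above it for 4 (13.7% and 18.3% of all genes). The median log2 ratio was -0.14. ANKRD1, a cardiac ankyrin repeat protein, was at 42.4 and 102 CPM (2.41-fold higher in replicate 2, 2.22 to 2.61). CYR61 and CTGF, secreted matricellular proteins, were at 128 and 286 CPM (2.24-fold) and at 133 and 270 CPM (2.03-fold). For these 3 genes all edited libraries were above both wild-type libraries, with CTGF from 295 to 650 CPM. AXL, a receptor kinase, was at 561 and 682 CPM (1.22-fold), LATS2, AMOTL1 and PTPN14 were within 1.1-fold, and IGFBP3 was higher in replicate 1 at 58.4 and 35.4 CPM. The promoter of ANKRD1 is shown as the promoter of a called gene with the TEAD core CATTCC, present in 5 of 16 matched promoters of the list (31.3%) and in 11.9% of the table. The capitals mark 2 matches, both on the opposite strand as GGAATG:

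ANKRD1 (chr10:90921088-90921337, minus strand): ANKRD1

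Targets of ATF4, the factor that raises amino acid supply under stress, were lower in replicate 1 by small margins. Of 33 members, 25 intervals were below no change and 3 above (13.7% and 18.3% of all genes), with a median log2 ratio of -0.23. CHAC1, which degrades glutathione, was the 1 gene of the list that passed (0.836% of all genes in replicate 2), at 3.75 and 11.9 CPM (3.17-fold higher in replicate 2, 2.44 to 4.15), with clone 6 replicate 2 at 71.1 CPM. ATF4 itself was at 247 and 339 CPM (1.37-fold) and the cystine transporter SLC7A11 at 123 and 177 CPM (1.44-fold). DDIT3, which encodes CHOP, was at 5.25 and 5.17 CPM, and GDF15, a stress cytokine, was higher in replicate 1 at 17.3 and 10.0 CPM. In the clone 6 pair all 33 intervals were below no change (31.3% of all genes), with a median of -1.30. Chaperones of the endoplasmic reticulum were level in the wild-type pair: the 20 members had a median of -0.03, against -1.45 in the clone 6 pair. Cytosolic heat shock genes had 9 of 14 intervals below no change and 0 above (13.7% and 18.3% of all genes), and the constitutive chaperone HSPA8 was at 2648 and 3538 CPM (1.34-fold higher in replicate 2).

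Inflammatory genes leaned to replicate 1. Of 27 members of the cytokine and NF-kB list, 16 intervals were above no change and 3 below (18.3% and 13.7% of all genes), with a median of 0.28, and 2 genes passed the call in replicate 1 (1.24% of all genes). CSF3 and CSF2, the granulocyte and granulocyte-macrophage colony-stimulating factors, passed in replicate 1 at 63.6 and 30.5 CPM (2.08-fold, 1.89 to 2.31) and at 6.38 and 3.03 CPM (2.11-fold, 1.53 to 2.94). Both were at or below 0.441 CPM in the edited libraries. On totals with no scaling factor 0 genes of the list passed in replicate 1 and 1 in replicate 2. The superoxide dismutase SOD2 was at 423 and 264 CPM (1.6-fold) and the chemokine CXCL1 at 199 and 141 CPM (1.42-fold), whereas CXCL2 was at 11.5 and 22.5 CPM and IL6 at 34.8 and 58.2 CPM. IL8, at 329 and 324 CPM, was level. PTGES, which makes prostaglandin E2 and stood in no list, was at 9.47 and 2.97 CPM (3.19-fold higher in replicate 1, 2.35 to 4.39).

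Genes of quiescence and of FOXO factors, which act when growth factor signals are low, had 7 of 13 intervals above no change and 0 below (18.3% and 13.7% of all genes), and 3 passed the call in replicate 1 (1.24% of all genes). CCNG2, an unconventional cyclin, was at 22.3 and 9.85 CPM (2.27-fold, 1.90 to 2.71), and PIK3IP1, an inhibitor of PI3 kinase, at 6.99 and 3.25 CPM (2.15-fold, 1.58 to 2.96). YPEL3 also passed at 2.77 and 1.21 CPM. The kinase inhibitors CDKN1B (1.1-fold) and CDKN2B (1.01-fold) were near no change. Of 20 p53 targets, 13 intervals were above and 2 below no change, against the same shares of all genes; MDM2, the p53 ubiquitin ligase, was at 317 and 227 CPM (1.40-fold), while GADD45A, a stress-induced growth arrest gene, was the 1 that passed, on the other side (0.836% of all genes), at 46.7 and 111 CPM (2.37-fold higher in replicate 2, 2.19 to 2.56).

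Collagen and matrix genes had 18 of 23 intervals above no change and 2 below (18.3% and 13.7% of all genes), with a median of 0.24. The differences were mostly small, as in COL1A1 at 1922 and 1692 CPM (1.14-fold) and COL3A1 at 183 and 137 CPM (1.33-fold). COL6A3 and THBS2 passed in replicate 1 (1.24% of all genes) at low levels, from 58 and 20 reads and from 30 and 8 reads. THBS1, the matricellular thrombospondin 1, went the other way at 548 and 843 CPM (1.54-fold higher in replicate 2). ADAMTS1, a secreted metalloprotease in no list, was at 25.8 and 104 CPM (4.01-fold higher in replicate 2, 3.65 to 4.42), and clone 6 replicate 2 was alike at 110 CPM. The receptor gene NOTCH3 was at 32.4 and 12.5 CPM (2.60-fold, 2.23 to 3.03), while HES1, a target of Notch receptors, was higher in replicate 2 at 22.5 and 47.2 CPM (2.10-fold). The antisense transcript RGMB-AS1 was at 5.63 and 15.1 CPM (2.69-fold higher in replicate 2); whether reads were counted by strand is not stated, so its reads cannot be told apart from those of overlapping genes.

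**Figure D4:**
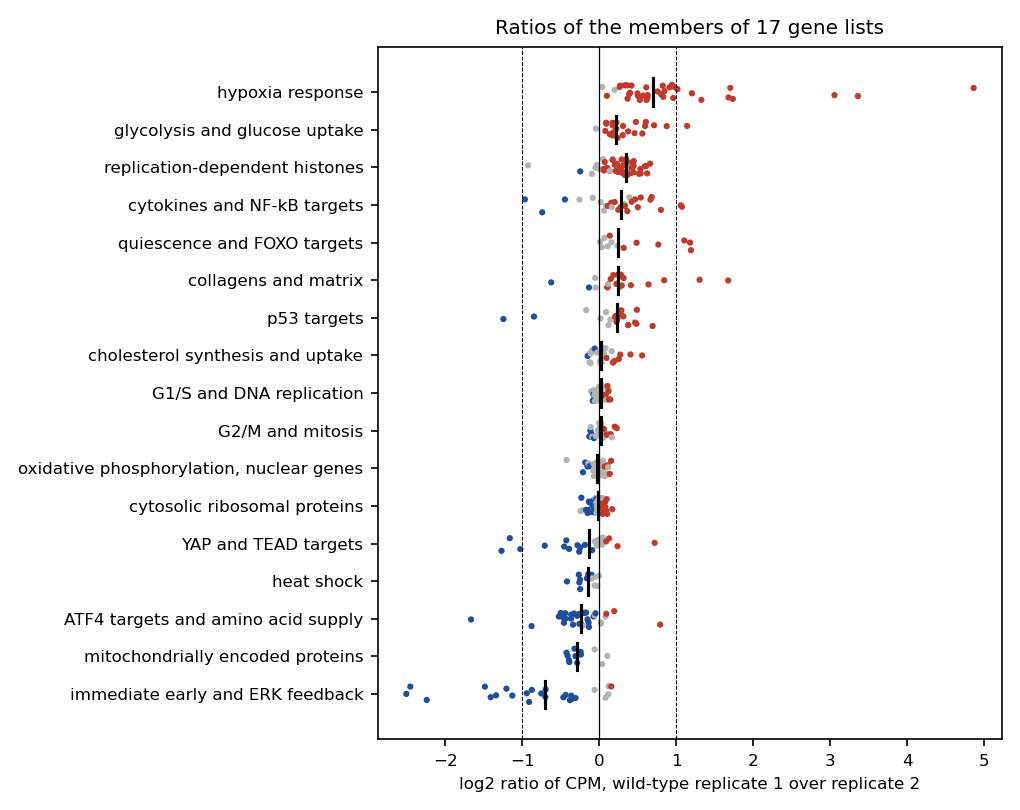
log2 ratio of wild-type replicate 1 over replicate 2 for each member of 17 gene lists, in red where the 95% counting interval lay above no change, in blue where it lay below and in grey otherwise, with the list median as a black bar and 2-fold as dashed lines. The hypoxia median stands at 0.69 and the immediate early median at -0.70, and the cell cycle, ribosomal protein and respiration lists stand near no change.

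Proliferation genes had medians near that of all genes. The 30 genes of DNA replication had a median log2 ratio of 0.02 with 6 intervals above and 3 below no change, and the 28 mitotic genes had 0.02 with 6 above and 5 below, shares near those of all genes (18.3% above and 13.7% below). The 24 cholesterol genes had 0.02, and 79 cytosolic ribosomal protein genes had -0.02 with 13 above and 28 below. On totals with no scaling factor the ribosomal protein genes had 1 above and 68 below, with a median of -0.10, so their counts rest on the scaling. The replication, mitosis and cholesterol medians were then -0.07, -0.06 and -0.06, so their side is not fixed, and replication had 0 intervals above and 13 below, mitosis 3 and 13.

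Reads of ribosomal RNA and of histone messages took a larger share of replicate 1. RNA28S5, MT-RNR2, MT-RNR1 and RNA18S5, the ribosomal RNA genes among the members, were all higher in replicate 1, by 3.33-fold, 3.73-fold, 3.80-fold and 3.96-fold. RNA28S5 alone was at 56340 and 16917 CPM. In clone 2 and clone 6 replicate 1, which stood close otherwise, RNA28S5 was at 3028.5 and 78832 CPM. Whether such reads follow the ribosomal RNA of the cells or what library preparation left of it was not tested. The replication-dependent histone genes, whose messages lack a poly(A) tail, were higher in replicate 1 with 47 of 58 intervals above no change and 1 below (18.3% and 13.7% of all genes), a median of 0.35 and 0 calls. Histone genes come in near-identical copies, so the share of reads given to each copy is uncertain. Clone 6 replicate 1 also had more ribosomal RNA than its partner, at 9.79% against 0.63% of reads, and the histones had a median of 0.70 in that pair. Clone 2 had less, at 0.42%, and its histones were just as far above those of clone 6 replicate 2, with a median of 0.71. The part of ribosomal RNA content in the other differences was not tested. With totals that leave out ribosomal RNA and mitochondrially encoded genes the hypoxia and immediate early medians were 0.69 and -0.71. Such totals shift the log2 ratio of every gene by the same amount, so these medians do not bear on that question. In total RNA from a culture, more cells in a state and more RNA per cell cannot be told apart.

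Markers of other cell types ranged from near 0 to high levels. The summed level in wild-type replicates 1 and 2 was 11.3 and 11.3 CPM for 11 entries of neuronal marker genes. For 9 microglial and leukocyte markers it was 2.63 and 1.6 CPM, and for 8 endothelial markers 42.8 and 37.2 CPM. Listed entries of TUBB3, NEFL, STMN2, OLIG2, MOG, CX3CR1 and TYROBP had 0 reads in both libraries. A listed 0 can also come from the counting, or belong to only 1 of several entries of a gene. Entries of SDHD and NDUFB8, which encode subunits of the respiratory chain, were at 0 in all 5 libraries. Their lists name 18 and 36 genes but held 19 and 37 entries with counts, of which 18 and 36 were members. The 8 oligodendrocyte markers summed to 193 and 183 CPM, nearly all of it from the proteoglycan CSPG4, and the 7 epithelial markers to 107 and 102 CPM, nearly all of it from the keratin KRT18. The 10 fibroblast and pericyte markers summed to 2211 and 1932 CPM, most of it from COL1A1, and the 7 members among them had 3 intervals above and 2 below no change. Of the members of these 6 lists, counting oligodendrocyte and epithelial markers, INA passed the call, in replicate 2, at 0.469 and 1.16 CPM.

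Chromosome position moved little with the ratio, while spliced length and GC content differed between some sets of genes. Chromosome medians of the log2 ratio ran from -0.00 to 0.05. By spliced length, the fifth of protein-coding genes with the shortest transcripts had a median of -0.02 and the fifth with the longest 0.07, a span well below that of the hypoxia or immediate early lists. Protein-coding genes with intervals above no change had a median length of 4945 bases, against 3288 for those below and 3784 for all. Median GC content was 54.5% and 50.8% for protein-coding genes called in replicates 1 and 2, against 47.9% for all. It was 47.5% and 47.2% for those with intervals above and below no change.

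Across the 10414 genes at 5 CPM or more in both pairs, the ratios of the wild-type and clone 6 pairs had a Pearson correlation of 0.257 across genes, which share their libraries and are not independent. Of the 16 genes called in wild-type replicate 1 in this set, 12 were higher in clone 6 replicate 1, where 39.8% of all genes were. The 12 include the 4 ribosomal RNA genes, with log2 ratios of 3.92 to 4.14 in the clone 6 pair. They also include NDRG1, whose interval in that pair included no change (log2 -0.13 to 0.38). Of the 22 called in wild-type replicate 2, 17 were higher in clone 6 replicate 2, where 60.2% of all genes were.

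**Figure D5:**
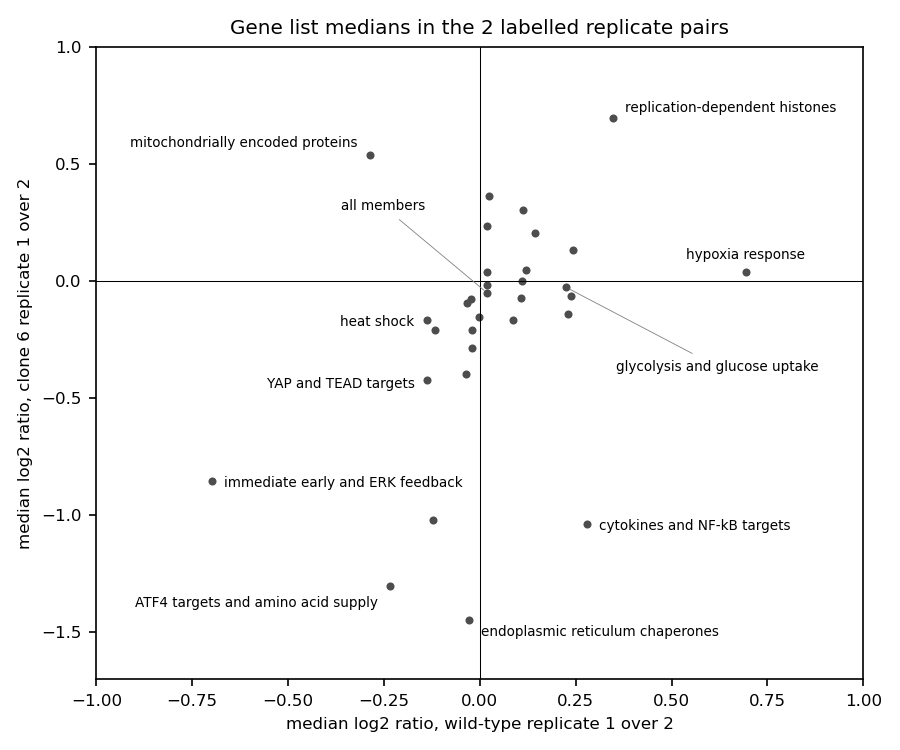
Median log2 ratio of replicate 1 over replicate 2 of each gene list with at least 5 members (cell type markers left out), in the wild-type pair (x axis) and in the clone 6 pair (y axis), with 1 point per list and 1 for all members. Immediate early genes stand at -0.70 and -0.85, hypoxia response genes at 0.69 and 0.04, and the ATF4 list at -0.23 and -1.30.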

How the data were processed

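Per the labels' protocols, HiSeq libraries were made from total RNA of SVG-10B1 cells. Trimmomatic, STAR, HTSeq and hg19 (GRCh37) are named in the submitters' processing notes, without versions; annotation release and strand setting are not stated there. Files that the authors deposited hold raw read counts, 1 whole number for each gene and library. Of 63677 genes listed, 5772 were empty and were left out.

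CPM were computed on totals scaled by TMM (edgeR 4.0.16, R 4.3.3) over all 5 libraries. Ratios and exact 95% counting intervals (binomial, conditional on the sum of reads) were computed in Python 3.11.15 with scipy 1.17.1, with 3 reads in place of 0, and were tested on simulated data. With 1 library a side, no model was fitted. Named genes were NDRG1, CA9, the 12 called genes farthest from no change each way at a mean of 5 CPM or more, and up to 6 members per list; further members were named by role after their values were seen. Genes, lists and members were chosen with earlier results of these data known. Alternatives were other scalings, other filters on low levels, other call rules and a prior count of 2 reads; comparisons without clone 2 were added after seeing the data. Gene class, spliced length, GC content and chromosome came from GENCODE 29 (GRCh38), joined by gene identifier for 13658 genes. Promoters came from RefSeq. Levels of different genes are not corrected for length and are not compared with each other.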

Additional observations from a re-analysis of the deposited data

How the results depend on the processing

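Counts of called genes depended on the filter and the call rule. With no filter on low levels 299 genes passed in replicate 1 and 243 in replicate 2, and with at least 5 CPM in either library 34 and 30 passed. At 1.5-fold 432 and 258 passed, and with the stricter counting interval 73 and 56. With RLE size factors the counts were 160 and 127, and with upper-quartile scaling 146 and 131. Totals with no scaling factor lowered the median log2 ratio of all genes by 0.084 and that of the glycolysis list to 0.14. The scaling factors were 0.975 and 1.032 in wild-type replicates 1 and 2, and dropping them moves the log2 ratio of every gene by the same amount. Totals without ribosomal RNA and mitochondrially encoded genes shifted the median of all genes by -0.0086. What sets the factors apart was not tested. No gene named by the ranking rule changed side under any scaling tried. No paired analysis was possible because each side of the comparison was 1 library and no test was made, and for the same reason no replicate could be left out. Depth limits the low genes: 3 reads are 0.141 CPM in replicate 1 and 0.165 CPM in replicate 2.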
